A study of Mus musculus with 18 samples.

Results

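The enzymes of the urea cycle, the carriers that feed it and the enzymes that make and break down glutamine were followed on arrays of mouse liver from the first days of the organ to adulthood. The group holds 10 genes chosen by function: Cps1, Otc, Ass1, Asl, Arg1, Nags, Slc25a15, Slc25a13, Glul and Gls2. A probe set counted for a gene where the platform annotation gave it that 1 symbol, or an older name of it, and no other. By this rule 9 of the 10 genes had a probe set of their own, 13 in all, out of 18193 genes with such a probe set on the array. No probe set was annotated to Gls2, the liver type glutaminase, in the table used here, and it was not analysed here.

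RNA came from mice of the CD-1 outbred strain and was hybridised to 18 Affymetrix whole-genome arrays. Embryonic livers were dissected daily between 10.5 and 14.5 days post coitum (dpc) and once more at 16.5 dpc, with the large vein behind the liver removed, and each stage had 2 arrays, each made from a pool of at least 5 embryos. Adult liver came from 10-week-old females and had 2 arrays. Its source name calls it normal and its titles call it baseline, although the treatment text attached to it describes a resection. What was left of the embryo once the liver had been taken was measured daily between 10.5 and 12.5 dpc and once more at 14.5 dpc, with 1 array each. No genetic change or drug was applied to any group. Pooling means that the p-values below measure the spread between pools, not between embryos. In whole tissue, fewer cells of a type and less RNA per cell cannot be told apart.

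The urea cycle turns ammonia into urea and runs through both mitochondria and cytosol of the hepatocyte. In mitochondria Nags makes N-acetylglutamate, the activator without which Cps1 cannot join ammonia and bicarbonate into carbamoyl phosphate, and Otc then transfers the carbamoyl group to ornithine, which Slc25a15 carries in while citrulline leaves. In the cytosol Ass1 and Asl build and split argininosuccinate with the aspartate that Slc25a13 (citrin) exports, and Arg1 releases urea and returns ornithine. In adult liver the cycle is known to sit in periportal and mid-lobular hepatocytes, while Glul (glutamine synthetase) takes up the remaining ammonia in the last hepatocytes around the central vein, and Gls2 frees ammonia from glutamine on the periportal side.

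The values are intensities, the brightness of a probe set on a linear scale. An intensity of 24.8, the 20th percentile of all values, was used as a floor before log2 was taken. Marker genes bore out the tissue labels in part. The summed intensity of 11 hepatocyte genes was 14161 and 14320 on the 10.5 dpc liver arrays, 49906 and 50347 at 16.5 dpc and 55468 and 63544 in adult liver, while the rest of the embryo had 2315, 4024, 7240 and 13642 at its 4 stages. The sum of 8 erythroid genes lay between 1928 and 2240 at 10.5 dpc, between 24404 and 24727 at 16.5 dpc and between 523 and 578 in adult liver. The sum of 10 heart genes was 13832 and 23725 on the 10.5 dpc liver arrays and 3766 and 11191 at 12.5 dpc, against 540 to 1362 on the other embryonic liver arrays. The part of these other cell types in the values below was not tested, and values without the 10.5 and 12.5 dpc arrays stand beside the differences and slopes whose call they changed or, where called, whose log2 value they moved by over 1.5 times. On the first 10.5 dpc array the ratio of the 3′ to the 5′ Gapdh probe set was 2.82, against 0.744 to 0.886 on the other 13 liver arrays.

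Promoter sequences were available from RefSeq (build GRCm38.p6) for 6 of the 10 genes, in 7 promoters that each run from 250 bases before to 50 bases after the annotated start. Otc was the member called at the earliest stage on the probe sets used for the counts. On those probe sets Glul was called lower in liver than in the rest of the embryo. Nags makes the activator of the cycle's entry enzyme. The promoters of Otc, Nags and Glul are shown on the strand of the gene. They lie at chrX:10252055-10252354 (plus strand, Otc), chr11:102145263-102145562 (plus strand, Nags) and chr1:153899679-153899978 (plus strand, Glul), and capitals mark CCAAT, the core that NF-Y is known to bind.
Otc: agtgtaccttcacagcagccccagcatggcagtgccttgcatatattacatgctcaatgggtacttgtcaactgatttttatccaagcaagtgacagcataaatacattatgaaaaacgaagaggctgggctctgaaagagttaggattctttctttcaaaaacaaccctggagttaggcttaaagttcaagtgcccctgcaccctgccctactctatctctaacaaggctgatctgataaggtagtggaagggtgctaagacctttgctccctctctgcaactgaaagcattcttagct
Nags: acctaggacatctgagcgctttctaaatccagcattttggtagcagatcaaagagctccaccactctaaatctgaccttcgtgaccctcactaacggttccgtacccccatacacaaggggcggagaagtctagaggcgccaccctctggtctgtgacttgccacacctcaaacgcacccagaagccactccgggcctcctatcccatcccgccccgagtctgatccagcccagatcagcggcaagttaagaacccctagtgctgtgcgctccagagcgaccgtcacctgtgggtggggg
Glul: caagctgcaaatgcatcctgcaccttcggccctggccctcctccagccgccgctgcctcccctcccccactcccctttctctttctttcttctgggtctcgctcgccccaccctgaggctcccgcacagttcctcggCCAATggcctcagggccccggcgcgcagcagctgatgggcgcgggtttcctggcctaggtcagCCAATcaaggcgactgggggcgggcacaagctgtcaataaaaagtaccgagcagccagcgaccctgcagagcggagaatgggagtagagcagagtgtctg

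The 7 promoters were searched on both strands for CCAAT, for the TATA box TATAAA, for the C/EBP motif TTGCNNAA, the HNF4 motif CAAAGTCCA, an HNF1 motif, the cyclic AMP element TGACGTCA and a glucocorticoid receptor motif. CCAAT was present in 2 of the 7, at 2 places in Glul and at 1 in Slc25a13, and in 37.4% of the 32851 mouse promoters of that length. None of the other 6 letter patterns was found in the 7 windows. They occur in 13.6% (TATAAA), 10.8% (C/EBP), 0.475% (HNF4), 0.399% (HNF1), 1.79% (cyclic AMP element) and 0.00913% (glucocorticoid) of all promoters. A match is a string of letters and not a binding site.

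The first question was in which order the members appeared in the embryonic liver. A difference was called where its adjusted p from limma (Benjamini-Hochberg over all 14125 genes tested) was under 0.05 and its size at least 1 on the log2 scale. All 9 measured members, with 12 of their 13 probe sets, passed the filter on dim probe sets (an intensity above 77.95, the median value of the table, on 2 or more arrays) and were tested. Between 16.5 and 10.5 dpc, 5 of the 9 rose (Otc, Cps1, Arg1, Nags and Asl) and none fell, beside 10.4% of all genes that rose. The median of the members was 1.13 on the log2 scale, against 0.05 for all genes. By the midpoint of its rise on the log2 scale, described below with its range, Otc was the earliest of these 5 and Cps1 and Arg1 were the latest.

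Otc, the mitochondrial ornithine transcarbamylase, had the steepest early course. Its brighter probe set read 17.97 and 37.2 on the arrays of 10.5 dpc, 116 and 121 on those of 11.5 dpc, 337 and 196 on those of 12.5 dpc, 376 and 449 on those of 13.5 dpc, 478 and 499.5 on those of 14.5 dpc, 556 and 537 on those of 16.5 dpc, and 1305 and 2477 in adult liver. Both arrays of 11.5 dpc lay above both of 10.5 dpc, where 1 of the 2 was under the floor, and both of 12.5 dpc lay above both of 11.5 dpc. The step at 11.5 against 10.5 dpc was 1.96 on the log2 scale (SE 0.32, limma adjusted p = 0.0025). It was the single member called at that step, where 2.97% of all genes were called higher. By 16.5 dpc the difference from 10.5 dpc was 4.17 (SE 0.32, limma adjusted p = 3.67e-06). With the 10.5 and 12.5 dpc arrays left out and 11.5 dpc as the start, the difference at 16.5 dpc was 2.21. The other tested probe set of Otc gave 3.93 for 16.5 against 10.5 dpc and 1.95 for 11.5 against 10.5 dpc. The remaining probe set annotated to Otc was too dim to be tested.

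Cps1, the carbamoyl phosphate synthetase at the entry of the cycle, stayed low until 13.5 dpc. It read 173 and 105 on the arrays of 10.5 dpc, 107.1 and 155 on those of 11.5 dpc, 251 and 175 on those of 12.5 dpc, 244 and 267 on those of 13.5 dpc, 577 and 608 on those of 14.5 dpc, 622 and 652 on those of 16.5 dpc, and 3278 and 5559 in adult liver. The arrays of 10.5 and 11.5 dpc overlapped, those of 12.5 and 13.5 dpc overlapped, and every array of 14.5 and 16.5 dpc lay above every earlier one. The rise at 16.5 against 10.5 dpc was 2.24 on the log2 scale (SE 0.30, limma adjusted p = 0.000173). Cps1 was called against 10.5 dpc from 14.5 dpc on.

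Arg1, the cytosolic arginase that closes the cycle, was near the floor for longest. It read 35.5 and 65.4 on the arrays of 10.5 dpc, 21.6 and 30.9 on those of 11.5 dpc, 45.7 and 23.4 on those of 12.5 dpc, 59.5 and 54.5 on those of 13.5 dpc, 118 and 132 on those of 14.5 dpc, 137 and 141 on those of 16.5 dpc, and 1648 and 3220 in adult liver. The arrays of the first 4 stages lay between 21.6 and 65.4, with those of 11.5 dpc below those of 10.5 dpc, and those of 14.5 and 16.5 dpc lay above them all. At 16.5 against 10.5 dpc Arg1 differed by 1.53 on the log2 scale (SE 0.38, limma adjusted p = 0.00875). Without the first 10.5 dpc array this difference was 1.09 and no longer called (limma adjusted p = 0.0705), and without the second it was 1.97. With the 10.5 and 12.5 dpc arrays left out and 11.5 dpc as the start it was 2.33 (limma adjusted p = 0.000557).

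Nags, which makes the activator of Cps1, and Asl, the argininosuccinate lyase, rose by smaller steps. Nags read 52.2 and 44.0 on the arrays of 10.5 dpc, 50.7 and 60.1 on those of 11.5 dpc, 85.3 and 61.7 on those of 12.5 dpc, 81.5 and 95.4 on those of 13.5 dpc, 120 and 113 on those of 14.5 dpc, 111 and 111 on those of 16.5 dpc, and 464 and 274 in adult liver. Asl read 194 and 157 on the arrays of 10.5 dpc, 179 and 206 on those of 11.5 dpc, 269 and 208 on those of 12.5 dpc, 318 and 337 on those of 13.5 dpc, 349 and 296 on those of 14.5 dpc, 369 and 391 on those of 16.5 dpc, and 1027 and 1132 in adult liver. In both genes the arrays of 10.5 and 11.5 dpc overlapped and those of 16.5 dpc lay above all arrays up to 13.5 dpc. The differences at 16.5 against 10.5 dpc were 1.21 for Nags (SE 0.25, limma adjusted p = 0.00315) and 1.12 for Asl (SE 0.16, limma adjusted p = 0.000305). That of Asl sat close to the size threshold and was 0.97 without the second 10.5 dpc array and 0.99 with 11.5 dpc as the start.

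Ass1, the argininosuccinate synthetase, could be read only with a limit. Its own probe set was dim, with 67.4 to 161 on the 12 embryonic liver arrays and 58.1 and 45.4 in adult liver, and its 16.5 against 10.5 dpc difference was −0.02. A brighter probe set was annotated to both Ass1 and Gm5424 and stayed out of all counts of members. It read 176 and 233 on the arrays of 10.5 dpc, 413 and 360 on those of 11.5 dpc, 603 and 456 on those of 12.5 dpc, 731 and 669 on those of 13.5 dpc, 1038 and 1006 on those of 14.5 dpc, 873 and 873 on those of 16.5 dpc, and 2496 and 5657 in adult liver. Each stage up to 14.5 dpc lay above the stage before it with no overlap. For this shared probe set the 16.5 against 10.5 dpc difference was 2.11 on the log2 scale (SE 0.31, limma adjusted p = 0.000386, all probe sets tested). The 2 probe sets disagreed in direction in adult liver too, and which of the 2 genes gave the shared signal was not tested.

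Neither carrier was called in the embryo on the probe set used for it. Slc25a15, the ornithine carrier, read 218 and 223 at 10.5 dpc and 330.0 and 339 at 16.5 dpc on its brighter probe set, with 294 to 385 at the stages between, and 1119 and 1274 in adult liver. Its 16.5 against 10.5 dpc difference of 0.60 (limma adjusted p = 0.0015) was under the size threshold, while its dimmer probe set, with 42.5 and 78.0 at 10.5 dpc and 125 and 125 at 16.5 dpc, gave 1.12 and was called. Slc25a13, the aspartate and glutamate carrier citrin, had 178 to 286 on all 12 embryonic arrays with overlapping stages, and a 16.5 against 10.5 dpc difference of 0.24.

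**Figure D1:**
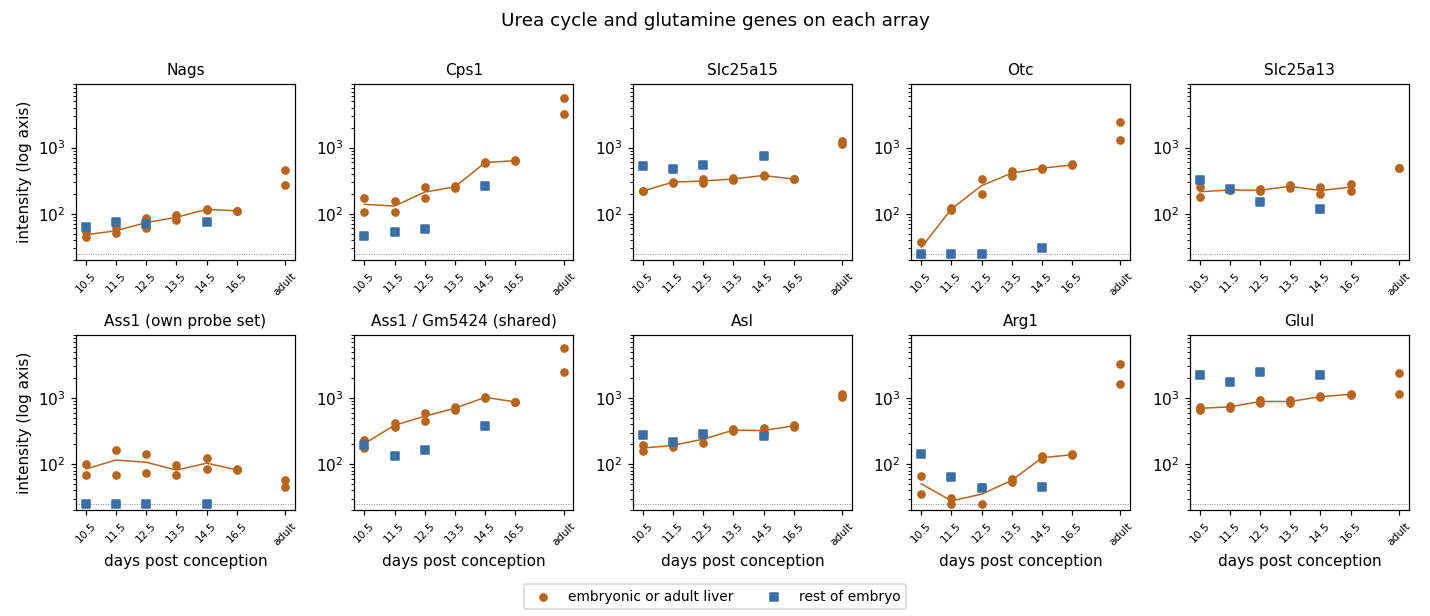
Intensity of each measured member (log axis) against stage in dpc with adult liver at the right, 1 point per array, orange circles for liver and blue squares for the rest of the embryo. The line joins stage means and the dotted line is the floor of 24.8. Otc rose from near the floor at 11.5 dpc, while Cps1 and Arg1 stepped up at 14.5 dpc.

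The order was also read as a midpoint, the stage at which the line through the mean log2 values crossed the level midway between 10.5 and 16.5 dpc. It was computed for probe sets that rose by at least 1 on the log2 scale between 10.5 and 16.5 dpc. All of these were also called at 16.5 against 10.5 dpc. The midpoint fell at 11.61 dpc for Otc (11.49 to 11.74 when each embryonic liver array was left out in turn), at 12.53 for Nags (12.14 to 12.97), at 12.76 for Asl (12.37 to 12.97), at 13.66 for Cps1 (13.52 to 13.81) and at 13.96 for Arg1 (13.77 to 14.16). The shared Ass1 and Gm5424 probe set had 11.78 dpc (11.56 to 12.02). On the log2 scale Otc thus came before Nags and Asl, and these before Cps1 and Arg1, with no overlap of the ranges. Nags and Asl overlapped, as did Cps1 and Arg1. On the linear scale the midpoint was 12.7 dpc for Otc and 12.9 for Nags. No ranges with arrays left out were computed on that scale, so whether Otc is separated from Nags and Asl there was not tested. The dimmer Slc25a15 probe set had a midpoint of 11.11 dpc with a wide range of 11.05 to 12.79.

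**Figure D2:**
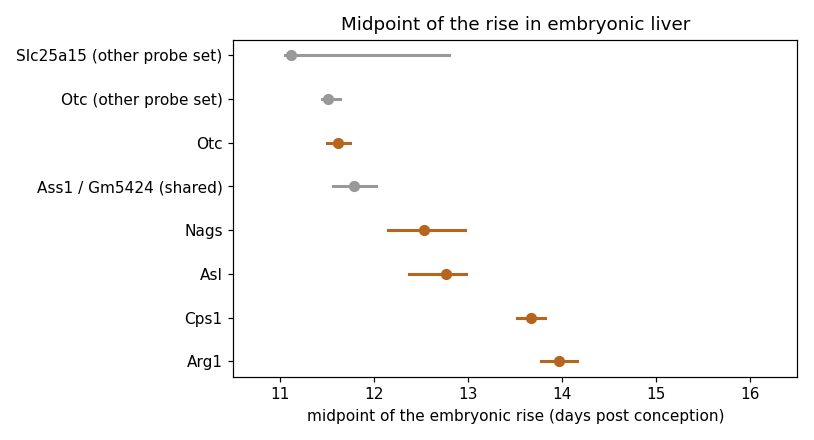
Midpoint of the embryonic rise in dpc for each probe set called at 16.5 against 10.5 dpc, with bars that span the values when each array was left out in turn. Brown points are the probe sets used for the gene and grey points a second or shared probe set. Otc sits at 11.61 dpc and Cps1 and Arg1 at 13.66 and 13.96 dpc.

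Counted against 10.5 dpc, the number of members called was 1 at 11.5, 12.5 and 13.5 dpc (Otc each time, beside 7.01% and 8.88% of all genes that rose at 12.5 and 13.5 dpc) and 4 at 14.5 dpc (Otc, Cps1, Arg1 and Nags, beside 10.4%). These comparisons share the 10.5 dpc arrays. Asl was called at 16.5 dpc only. At 13.5 dpc Cps1 (0.92, limma adjusted p = 0.0373), Asl (0.91, limma adjusted p = 0.00158) and Nags (0.88, limma adjusted p = 0.0208) missed the call by size alone. So did Slc25a15 (0.60, limma adjusted p = 0.00176). The stage of the first call thus depends on the size threshold. Outside these counts, the shared Ass1 and Gm5424 probe set was called from 12.5 dpc on and the dimmer Slc25a15 probe set from 13.5 dpc on. Between neighbouring stages after 11.5 dpc limma called no member on the probe set used for it, while the other tested probe set of Otc was called at 12.5 against 11.5 dpc (1.06 on the log2 scale, limma adjusted p = 0.0187). These steps called 2.95%, 0.0850%, 0.0566% and 0.0354% of all genes, in the order of stages. At an unadjusted p under 0.05 the same steps held 2, 1, 2 and 0 of the 9 members, beside 16.2%, 6.56%, 4.85% and 6.24% of all genes, the 14.5 against 13.5 dpc step being that of Cps1 (1.22 on the log2 scale, adjusted p = 0.497) and Arg1 (1.13, adjusted p = 0.972). Over the whole embryonic series 5 of the 9 members were called by limma's F test, beside 19.6% of all genes.

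The second question was how far the embryonic liver stood from the adult. Adult liver was higher than 16.5 dpc liver for 6 of the 9 members and lower for none, beside 10.3% of all genes that were higher. The 16.5 dpc arrays are shared with the comparison above. The median of the members was 1.69 on the log2 scale, against −0.24 for all genes. Arg1 differed most, by 4.05 (SE 0.38, limma adjusted p = 4.76e-06), or 16.6-fold, and Cps1 by 2.75 (SE 0.30, limma adjusted p = 1.59e-05), or 6.71-fold. Slc25a15 differed by 1.84, Otc by 1.72, Nags by 1.69 and Asl by 1.505, each within 2.84-fold to 3.57-fold. Both adult arrays lay above both 16.5 dpc arrays for all 6, but the adult pair differed widely, with 1648 and 3220 for Arg1. Slc25a13 read 499 and 499 in adult liver and 286 and 220 at 16.5 dpc, a difference of 0.99 (limma adjusted p = 0.00114) that sat just under the size threshold, and it was 1.18 without the first 16.5 dpc array. The shared Ass1 and Gm5424 probe set differed by 2.11.

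Set against the adult mean, the members had reached different levels by 16.5 dpc. Arg1 stood at 5.71% and Cps1 at 14.4%, the lowest of the 9 members. Slc25a15 stood at 27.9%, Otc at 28.9%, Nags at 30.0% and Asl at 35.2%, which lie close together given the spread of the adult pair, and Slc25a13 at 50.6% and Glul at 64.0%. Against the first adult array alone Glul stood at 100.2%, and against the second at 47.0%. Ass1 stood at 158.6% on its own dim probe set and at 21.4% on the shared one, which was at 35.0% of the first adult array alone. At 10.5 dpc Otc had been at 1.46%, Arg1 at 2.07% and Cps1 at 3.14%. Asl, Nags, Slc25a15 and Slc25a13 already had 13.04% to 43.0% of the adult level there.

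**Figure D3:**
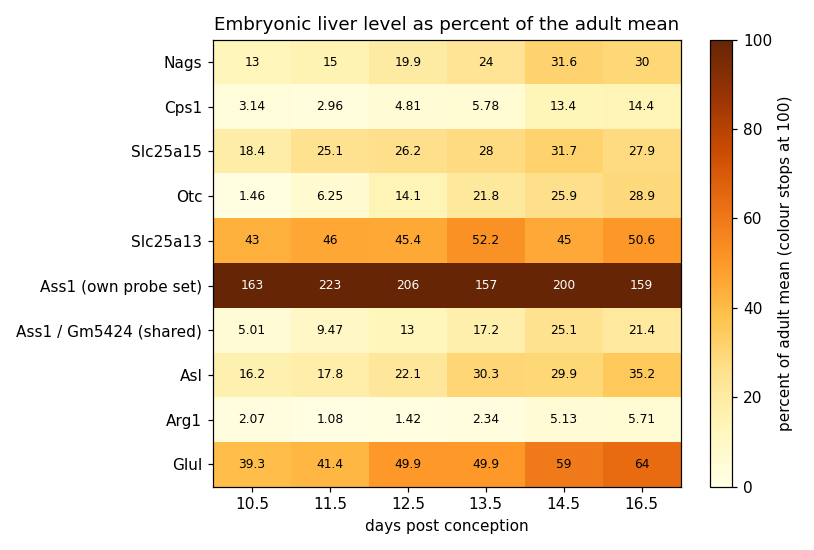
Mean intensity at each embryonic liver stage (columns, in dpc) as a percentage of the adult mean of the same probe set (rows). At 16.5 dpc Arg1 had 5.71% and Cps1 14.4% of the adult level, against 28.9% for Otc and 64.0% for Glul.

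Glul, the glutamine synthetase, was called in neither liver comparison. Its brighter probe set read 654 and 742 on the arrays of 10.5 dpc, 717 and 752 on those of 11.5 dpc, 929 and 842 on those of 12.5 dpc, 831 and 939 on those of 13.5 dpc, 1032 and 1064 on those of 14.5 dpc, 1114 and 1158 on those of 16.5 dpc, and 1134 and 2416 in adult liver. All arrays from 12.5 dpc on lay above both of 10.5 dpc, but the lower adult array fell between the 2 arrays of 16.5 dpc. The differences were 0.70 at 16.5 against 10.5 dpc (limma adjusted p = 0.0608) and 0.54 in adult against 16.5 dpc liver (limma adjusted p = 0.107), and neither was called. Its other probe set gave 0.74 (limma adjusted p = 0.00106) and 0.73 (limma adjusted p = 0.000581), both under the size threshold. Without the second adult array the adult difference was −0.00191, and without the first it was 1.09.

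The third question was which members set the embryonic liver apart from the rest of the embryo. Here 8 liver arrays were compared with the 4 arrays of the rest, with stage as a factor. Each liver array held 1216 to 1535 negative values and the rest arrays held none, and the median difference over all genes was −1.04 on the log2 scale. Differences below are therefore to be read beside that shift. The call was passed by 4 of the 9 members, beside 65.1% of all genes. Liver was higher for 3 of them (Otc, Ass1 and Cps1), as for 2078 of the 14895 genes tested, and lower for 1 (Glul), beside 51.2% of all genes.

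Otc read 15.3, 3.9, 10.1 and 30.8 in the rest of the embryo at the 4 stages, under the floor on 3 of the 4 arrays. The single-stage differences in liver against the rest were 0.29 at 10.5 dpc, 2.25 at 11.5 dpc, 3.37 at 12.5 dpc and 3.99 at 14.5 dpc. The difference was not called at 10.5 dpc and was called at the 3 later stages. Cps1 was higher in liver at all 4 stages, with 46, 53.7, 59.3 and 263 in the rest, and its mean difference was 1.45 (SE 0.19, limma adjusted p = 2.52e-05). The Cps1 level of the rest was highest at 14.5 dpc, and 8 gut genes summed to 1304 on that array, against 792 to 926 on the other rest arrays. The sum of the hepatocyte genes was also highest there, at 13642 against 2315 to 7240, as were most other marker sums. Cps1 is also known in intestinal epithelium, and the part of gut or of hepatocytes in that value was not tested. The dim probe set of Ass1 read 4.1 to 17.3 in the rest, all under the floor, against 68.6 to 161 on the 8 liver arrays. With the rest set to the floor the difference was 3.93-fold, a size that depends on the floor chosen. With the floor at the 40th percentile it was 0.83 on the log2 scale and no longer called. The shared Ass1 and Gm5424 probe set gave 1.18 (SE 0.23, limma adjusted p = 0.000673).

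The Arg1 difference changed sign between stages. The rest of the embryo read 141 at 10.5 dpc, 64.6 at 11.5 dpc, 43.9 at 12.5 dpc and 44.4 at 14.5 dpc. The liver values are given above and were lowest at 11.5 dpc and highest at 14.5 dpc among these stages. The difference in liver against the rest was −1.55 at 10.5 dpc, −1.22 at 11.5 dpc, −0.38 at 12.5 dpc and 1.49 at 14.5 dpc. The mean over stages was −0.41. Each stage has 1 rest array, so the spread between rest pools at a stage was not measured. The values at 10.5 and 11.5 dpc lie near the shift of all genes.

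Glul read 2247, 1766, 2465 and 2197 on its brighter probe set in the rest of the embryo, above every embryonic liver array. The difference in liver against the rest was −1.38 (SE 0.10, limma adjusted p = 2.09e-07), which lies near the shift of all genes. With each array centred on its median the difference was −0.98, and with quantile normalization −0.12, neither of them called. The other probe set of Glul read 492 to 551 in the rest, against 266 to 511 on the embryonic liver arrays. Its difference was −0.60 over the 4 stages, under the size threshold, and −0.14 at 14.5 dpc. As a mean over probe sets the Glul difference was −0.99 and not called. For 5 genes listed for astroglia, the summed intensity was 7503 to 10369 on the rest arrays. It was 271 to 500 on the embryonic liver arrays. Only 2 of these 5 genes passed the call as lower in liver, and the other 3 did not, so the sum does not stand for the whole list. Astroglia are known for glutamine synthetase. Whether the rest arrays held such cells, and their part in the Glul value, was not tested. Asl, Nags, Slc25a13 and Slc25a15 were not called over the 4 stages. The 2 probe sets of Slc25a15 disagreed, with −0.92 on the brighter and 1.35 on the dimmer, which alone was called.

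**Figure D4:**
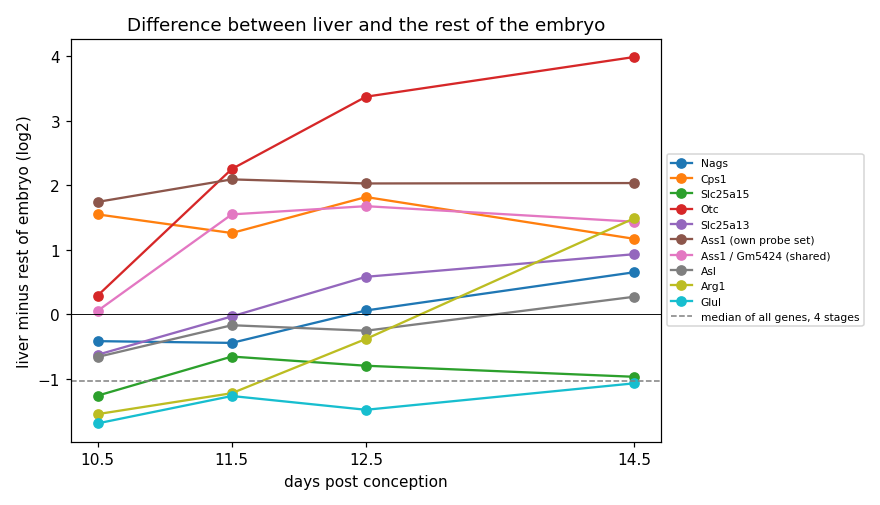
Difference between liver and the rest of the embryo on the log2 scale at the 4 matched stages (in dpc) for each member. The dashed line is the median of all genes at −1.04. Otc on its brighter probe set climbs to 3.99 at 14.5 dpc, and Arg1 passes from −1.55 to 1.49. Glul on its brighter probe set stays between −1.69 and −1.07.

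The change of the liver against rest difference with stage was tested as a slope, called at an adjusted p under 0.05 and at least 0.25 log2 per day. It was called as rising for 3 members, beside 5.09% of all genes. The slope was 0.87 per day for Otc (SE 0.20, limma adjusted p = 0.0159), 0.38 for Slc25a13 (SE 0.09, limma adjusted p = 0.0126) and 0.29 for Nags (SE 0.08, limma adjusted p = 0.0372). Arg1 had a slope of 0.79 (limma adjusted p = 0.0577) and was not called, although 5 of 23 other settings called it. The Nags call held in 12 of 23 other settings and was lost with either other floor. Those of Otc and Slc25a13 each held in 21 of 24. The Otc call was lost with the floor at the 10th percentile (0.72, limma adjusted p = 0.0735). For Slc25a13 the rest of the embryo read 326, 235, 151 and 117 over the stages while liver read 178 to 253 at the same stages. Without the 10.5 dpc rest array none of the 3 was called, at slopes of 0.84 for Otc, 0.33 for Slc25a13 and 0.33 for Nags. Without the 14.5 dpc rest array none was called either, at 0.95 for Otc, 0.57 for Slc25a13 and 0.27 for Nags. With the 10.5 and 12.5 dpc arrays left out, Otc kept its call at 0.58, Arg1 was called at 0.90 (limma adjusted p = 0.0302), and Nags (0.36, adjusted p = 0.0676) and Slc25a13 (0.32, adjusted p = 0.123) were not.

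The genes most alike to 4 of the members over the 14 liver arrays were named by Pearson's r of log2 values, as a description over samples that share their stages. Those of Otc were Hpx (0.995), Vtn (0.994) and Apof (0.993), secreted proteins of hepatocytes. Those of Cps1 were Mtarc1 (0.989), Mat1a (0.988) and Gnmt (0.987), of which Mat1a and Gnmt act in the methionine cycle. Those of Arg1 were Ppm1k (0.988), Hp (0.986) and Cyp3a11 (0.985). Those of Glul were Dbi (0.986), Tmbim6 (0.974) and Cyb5a (0.963).

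Other genes of nitrogen and amino acid handling moved in both directions. Of 36 tested, 9 rose and 2 fell at 16.5 against 10.5 dpc, beside 10.4% of all genes that rose and 6.98% that fell, with a median of 0.56. The largest rises were those of the cationic amino acid carrier Slc7a2 (2.41), the glutamine carrier Slc1a5 (2.31) and asparagine synthetase Asns (2.00), and the falls those of Slc38a1 (−1.12) and Got1 (−1.11). In adult against 16.5 dpc liver 13 were higher and 10 lower, beside 10.3% and 22.8% of all genes. Aspg (4.55), the mitochondrial carbonic anhydrase Car5a (3.35), which supplies bicarbonate to Cps1, and the aminotransferase Gpt (2.91) led the higher ones, and Slc1a5 (−5.15), Slc38a5 (−4.78) and Asns (−4.35) the lower ones. Slc1a5 and Asns thus rose in the embryo and were low in the adult, where the erythroid sum was low as well, and its part in this was not tested. In liver against the rest, 6 of 35 were higher and 13 lower, beside 2078 and 7622 of the 14895 genes tested.

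Of 18 transcription and signalling genes of the hepatocyte, 5 rose and 1 fell between 16.5 and 10.5 dpc. The shares of all genes given for the nitrogen list (10.4% and 6.98% at this comparison, 10.3% and 22.8% in adult against 16.5 dpc liver) hold for this list and for the periportal and pericentral ones as well. Cebpa (1.59), Hnf4a (1.43) and the glucocorticoid receptor Nr3c1 (1.37) led the rises, and Foxa1 fell by 1.35. In adult against 16.5 dpc liver 8 were higher and none lower, led by the glucagon receptor Gcgr (2.63), Onecut1 (2.62) and Klf15 (2.55). Periportal genes, which share the zone of the urea cycle in the adult, had 4 of 10 higher at 16.5 against 10.5 dpc, led by Uroc1 (3.14), Aldh1b1 (2.10) and Fbp1 (1.78), and 9 of 10 higher in adult against 16.5 dpc liver, led by Cyp2f2 (5.86), Pck1 (5.67) and Tat (5.46). Pericentral genes, which share the zone of Glul, had 4 of 15 higher at 16.5 against 10.5 dpc, led by Rgn (5.06), Lect2 (2.59) and Gulo (1.17). In adult against 16.5 dpc liver 8 of the 15 were higher, led by Cyp2e1 (6.15), Cyp1a2 (6.05) and Nr1i3 (4.54), and Axin2 was lower (−1.13).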

How the data were processed

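The deposited table held linear intensity values for 45101 probe sets on 18 arrays, 14 of liver and 4 of the rest of the embryo, per the file headers and the labels. The authors' summarisation and scaling are not given in the sources used here, and the liver arrays hold negative values where the rest arrays hold none. Control probe sets (64) were left out. The platform annotation gave 1 symbol to 34945 probe sets, several to 932 and none to 9160.

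Groups were taken from the source names, since the age tags of most liver samples repeat 10.5 dpc and the titles of the rest samples name liver. The members and gene lists were chosen with earlier results of these data known. All members are named, with up to 3 called genes in each direction for each list, and the 3 genes most correlated with a member. Deposited intensities were raised to a floor of 24.8 (20th percentile), turned to log2 and kept where above 77.95 (50th percentile) on at least 2 arrays. A gene was the probe set with the highest mean. limma 3.58.1 in R 4.3.3 (lmFit, eBayes with trend, Benjamini-Hochberg) fitted a mean per group on the 14 liver arrays, and tissue with stage as a factor on 12 arrays, each with 7 residual degrees of freedom, and a stage slope with 8. Differences between tissues at a single stage were taken from all 18 arrays fitted together. With 1 rest array per stage, they are given as sizes only. Arrays give no counting depth, and their small number limits the precision. Replicates correlated at 0.948 to 0.980. The scripts were tested on simulated data. Alternatives covered floor, normalization, filter, probe set choice, fit, replicate block and each array left out.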

Additional observations from a re-analysis of the deposited data

Results flagged for a closer look

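The liver against rest of embryo difference changed with stage for 3 members, as tested by the slope in limma. It rose by 0.87 log2 per day for Otc (0.871), by 0.38 for Slc25a13 (0.384) and by 0.29 for Nags (0.290). The rest of the embryo had 1 array per stage. Otc rose in liver while the rest stayed under the floor on 3 of 4 arrays. In Slc25a13 the rest of the embryo dropped to 117 at 14.5 dpc, against 326 at 10.5 dpc, and in Nags the rest read 63.9 at 10.5 dpc and 74.1 at 14.5 dpc. None of the 3 was called without the 10.5 dpc rest array (slopes of 0.84 for Otc, 0.33 for Slc25a13 and 0.33 for Nags) or without the 14.5 dpc rest array (0.95, 0.57 and 0.27 in the same order).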

How the results depend on the processing

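The recomputed counts of called members were within 1.5 times of those reported in 256 of 263 cases, over 14 other settings and 18 arrays left out in turn. The exceptions were the slope count, which was 1 with the floor at the 10th percentile and 0 to 4 when arrays were left out, and the 12.5 against 11.5 dpc count, which was 1 (Otc) with quantile normalization and 0 to 1 when arrays were left out. Of 892 values of single members, 826 kept direction and side of the threshold, 24 were no longer called, 14 were newly called and 28 changed sign, none of them a called difference. On the linear scale the midpoint was 12.7 dpc for Otc and 12.9 for Nags, with no ranges computed. The separation of Otc from Nags and Asl is thus shown for log2 values only. With the floor at the 40th percentile the midpoint of Otc was 11.99. When arrays were left out, the midpoint ran from 12.37 to 12.97 for Asl and from 12.14 to 12.97 for Nags.

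The liver against rest difference of Nags was 0.0270 with the floor at the 40th percentile, 0.36 with median centring, 0.30 with quantile normalization, 0.0314 with the replicate block and 0.11 without the 10.5 and 12.5 dpc arrays. That of Asl was 0.19 with median centring, 0.66 with quantile normalization and 0.0522 without those arrays, that of Slc25a15 was 0.14 with quantile normalization and 0.22 as a mean over probe sets, and that of Arg1 was 0.13 without those arrays. The slope of Cps1 was 0.12 with quantile normalization, and without those arrays the slopes of Ass1 and Slc25a15 were −0.0190 and −0.10. When arrays were left out in turn, the liver against rest difference ran from −0.27 to 0.10 for Nags and from −0.0252 to 0.49 for Slc25a13, and the slope from −0.00570 to 0.12 for Ass1, from −0.24 to 0.39 for Cps1 and from −0.0403 to 0.16 for Slc25a15. The 16.5 against 10.5 dpc difference ran from −0.29 to 0.26 for Ass1 and from −0.00787 to 0.50 for Slc25a13, and the adult against 16.5 dpc difference of Glul from −0.00191 to 1.09. The cause of these changes was not tested.

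Counting the shared probe set for Ass1, chosen after seeing the data, gave 6 members called at 16.5 against 10.5 dpc and 7 in adult against 16.5 dpc liver. To see whether replicate numbers pair the samples, the difference between the first and second replicate was taken for each gene within each liver group. Over the 21 pairs of groups these differences correlated at −0.354 to 0.254, with 5 pairs above 0.1. The numbers were therefore not taken to pair the samples. The replicate block left the count at 16.5 against 10.5 dpc at 5 and changed no other count of members. Signal under the floor limits Otc at 10.5 dpc, Arg1 at 11.5 and 12.5 dpc, and Ass1 on its own probe set in the rest of the embryo, each with at least 1 array there.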
